A study of Mus musculus with 22 samples.

Results

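The response of resting mouse macrophages to L-(+)-lactic acid (LA) given alone was measured by RNA-seq in 2 libraries with LA and 2 control libraries, selected by their labels from the 22 samples of the series, 10 of which are RNA libraries. The cells were bone marrow-derived macrophages of C57/BL6 mice, grown for 7 days in medium with 10% fetal bovine serum and 30% supernatant of L929 cells (a fibroblast line whose medium supplies the growth factor M-CSF) and replated in 20% supernatant the day before treatment. The control group had no treatment, and the LA group had LA and no lipopolysaccharide (LPS, from the outer membrane of bacteria, which activates macrophages). Treatments lasted 3 h. The labels give 10 mM LA for the groups with LPS and do not state the dose or the pH for LA alone. No group received another acid, such as HCl, without LPS, so added lactate and acidity cannot be told apart in this comparison. Groups with 100 ng/ml LPS (LPS, LPS+LA and LPS+HCl, the last at a low pH with pH 6.5 as the example, 2 libraries each) entered the fit and are set beside LA where stated. The labels do not say whether replicates came from separate mice or cultures, so the p-values measure the spread between these libraries, which may be technical.

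Lactic acid leaves glycolytic cells together with protons and accumulates in inflamed and tumour tissue. It reaches macrophages through monocarboxylate transporters (Slc16a1, Slc16a3), is oxidised to pyruvate by lactate dehydrogenase, and the proton can be sensed by G protein-coupled receptors such as Gpr65 and Gpr132, some of which raise cAMP. Immediate early genes (Fos, Nr4a and Egr families) are transcription factors induced within minutes to hours by many signals, among them cAMP through the factor CREB. In macrophages NR4A receptors and the mRNA decay factor Zfp36 are known for restraining inflammatory genes.

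The 4 libraries held 19137378 to 20114587 counts. Of 16059 genes in the table, 12213 were tested. At an adjusted p under 0.05 (edgeR's quasi-likelihood test, adjusted by Benjamini and Hochberg's method), the rule behind "called", "rose" and "fell" in all that follows, 2488 genes (20.4%) rose with LA and 2189 (17.9%) fell. Changes of log2 1 or more were called for 347 genes (2.84%) upward and 258 (2.11%) downward. Both LA libraries lay above both control libraries for 33.7% of the genes tested and below them for 32.5%, which is the background for any statement that groups do not overlap. Levels are in CPM, a gene's counts relative to the library size after TMM scaling, and differences are LA minus control on the log2 scale with a standard error (SE). Scaling by total counts instead shifted the median log2 by -0.11 and gave 1719 genes higher and 3070 lower, so small differences such as those of ribosomal or mitochondrial genes are relative to the scaling.

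Control and LA libraries lay together on the first principal component of all 10 libraries (67% of the variance, -73.9 to -72.3) and apart on the second (11.7%), where LA stood at 10.9 and 14.4 and control at -44.1 and -32.8. Replicates correlated at 0.983 in control and 0.986 in LA (Pearson's r of log CPM across genes, which are not independent replicates). Macrophage markers were abundant in each library, with a summed level of 22080 and 22568 CPM in control and 25310 and 24971 CPM in LA, and 9 of 18 markers rose and 3 fell. In bulk RNA, fewer cells of a type and less RNA per cell cannot be told apart. Of 10 T cell markers 7 were in the table and 4 were tested, of which 2 fell and 0 rose, with a summed level of 153 and 135 CPM in control and 55.2 and 57.9 CPM in LA. That sum was nearly all Cd28 (2213 and 1885 counts in control, 597 and 562 in LA) and Il7r (1525 and 1423 counts, then 621 and 676), while the defining Cd3d had 1 count and Cd3e 2 counts in control and both had 0 in LA. Neuronal transcripts stood out in control library 1, where Slc17a7 had 195 counts against 6 in control library 2 and 6 and 11 in LA. Of the 41 genes called with a log2 of -2 or lower, 0 reached 10 CPM in either group. Among these 41, 17 had over 3 times the level in control library 1 that they had in control library 2. The same excess was found for 11 of the 100 genes called with a log2 of 2 or higher. Whether these genes are neuronal transcripts was not tested.

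**Figure D1:**
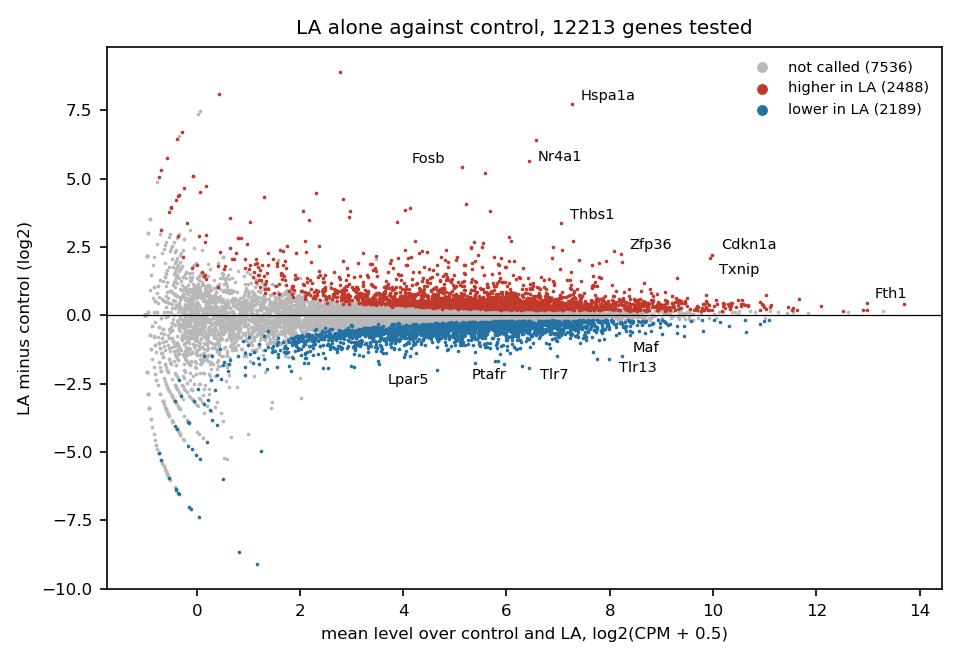
Difference of LA from control (log2, vertical) against the mean level of each of the 12213 genes tested (log2 of CPM + 0.5, horizontal), with 2488 genes called higher in red, 2189 called lower in blue and the rest in grey. Rises reached higher log2 values than falls among genes above about 10 CPM, and the deepest falls sit at the left, at the lowest levels.

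Immediate early genes were the list with the largest median change. Of 26 members tested, 23 rose and 2 fell, with a median log2 of 1.74 against 0.0009 over all genes tested. Nr4a1, an orphan nuclear receptor, had 3.44 and 3.33 CPM in control and 180 and 157 CPM in LA. Its log2 difference was 5.64 (SE 0.13, edgeR adjusted p = 8.17e-20), and the libraries of each group lay close together. Nr4a2, of the same receptor family, had 1.86 and 2.25 CPM in control and 31.7 and 27.4 CPM in LA (log2 3.84, SE 0.19). Fosb, an AP-1 subunit, had 1.25 and 1.88 CPM in control and 73.5 and 62.1 CPM in LA (log2 5.43, SE 0.19). Its relative Fos had a higher base, 42.3 and 43.4 CPM, and reached 229 and 222 CPM (log2 2.39, SE 0.09). Junb, which pairs with Fos proteins in AP-1, had 81.9 and 96.7 CPM in control and 471 and 437 CPM in LA (log2 2.35, SE 0.08). The 2 members that fell were Klf6 (-0.51) and Atf3 (-0.50), the latter a stress-induced repressor, and both are named outside the rule because they are the exceptions.

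The promoters of these genes are shown because a cAMP response element, the CREB site TGACGTCA, or its core TGACG, which reads CGTCA on the other strand, is a known feature of several of them. Each sequence is the 250 bases before the RefSeq start on the strand of the gene (GRCm38.p6), with cores in capitals: Nr4a1 at chr15:101266596-101266845 (plus strand), Nr4a2 at chr2:57124004-57124253 (minus), Fosb at chr7:19310046-19310295 (minus) and Fos at chr12:85473640-85473889 (plus).
Nr4a1: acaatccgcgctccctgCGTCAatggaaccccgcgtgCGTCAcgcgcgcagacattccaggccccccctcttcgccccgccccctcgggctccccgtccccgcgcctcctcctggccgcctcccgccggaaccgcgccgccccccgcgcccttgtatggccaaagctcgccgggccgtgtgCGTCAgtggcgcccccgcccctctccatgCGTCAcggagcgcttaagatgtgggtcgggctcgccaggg
Nr4a2: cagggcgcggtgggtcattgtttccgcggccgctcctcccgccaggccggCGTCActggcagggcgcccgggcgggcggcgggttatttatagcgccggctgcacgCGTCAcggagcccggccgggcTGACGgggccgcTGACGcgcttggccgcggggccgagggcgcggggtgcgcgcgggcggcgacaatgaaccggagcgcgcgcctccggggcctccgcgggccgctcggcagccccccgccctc
Fosb: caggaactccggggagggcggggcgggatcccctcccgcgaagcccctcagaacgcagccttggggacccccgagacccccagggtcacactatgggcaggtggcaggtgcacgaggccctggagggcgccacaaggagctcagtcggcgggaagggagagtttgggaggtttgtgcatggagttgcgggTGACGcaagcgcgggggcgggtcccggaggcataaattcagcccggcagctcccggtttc
Fos: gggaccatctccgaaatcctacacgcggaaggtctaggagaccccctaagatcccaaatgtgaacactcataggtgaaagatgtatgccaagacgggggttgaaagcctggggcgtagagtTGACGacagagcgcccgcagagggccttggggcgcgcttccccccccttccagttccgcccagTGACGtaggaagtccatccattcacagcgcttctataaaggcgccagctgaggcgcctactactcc
Nr4a1 and Nr4a2 each held 4 cores, Fos 2 (the nearer starting 66 bases before the start) and Fosb 1 (60 bases before it), and the full site was in none of them. The same search of other genes that rose found no core before the start of Adora2b, Rgs16 or Cdkn1a, and 1 in each promoter of Per1. Across genes the core was common. In the 300 bases from 250 before to 50 after the start, it was found on either strand in 39.3% of the 2019 genes called higher that had a RefSeq promoter, in 34.3% of the 1782 called lower and in 35.4% of all 9797. For rises of log2 1 or more the share was 36.1% of 274 genes, and for falls of that size 25.4% of 205. The full site, which also counts as a core, was in 4.66% of the genes higher, 3.25% of those lower and 3.58% of all. A match is a description of the sequence and shows no binding.

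Feedback genes of the cAMP pathway and of MAP kinases moved mostly upward. Of 30 tested members of the cAMP and CREB list, 14 rose and 3 fell, with a median log2 of 0.20, and under total-count scaling the count was 12 higher and 7 lower. Rgs16, which limits G protein signalling, had 0.485 and 0.842 CPM in control and 12.9 and 12.3 CPM in LA (log2 4.24, SE 0.20). Per1, a clock gene also induced by CREB, went from 27.7 and 29.1 CPM to 108 and 83.6 CPM (log2 1.76, SE 0.12). Pde4b, a phosphodiesterase that degrades cAMP, rose by a log2 of 1.33 (SE 0.10) from 10.2 and 9.82 CPM to 26.6 and 23.7 CPM. Among 22 genes of cytokine mRNA decay and MAP kinase phosphatases, 14 rose and 2 fell (median log2 0.54). Zfp36, which binds cytokine mRNAs and promotes their decay, had 98.3 and 106 CPM in control and 517 and 462 CPM in LA (log2 2.26, SE 0.07, edgeR adjusted p = 9.74e-17). The phosphatases Dusp5 (2.18 and 2.00 CPM in control, 30.3 and 33.3 CPM in LA, log2 3.92, SE 0.17) and Dusp1 (24.1 and 24.1 CPM, then 81.6 and 95.6 CPM, log2 1.88, SE 0.09) rose with it, as did the endoribonuclease gene Zc3h12a (log2 1.49, SE 0.10).

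Of 40 tested receptors for lipids, purines and peptides 7 rose and 10 fell, shares near those over all genes, and the median log2 of -0.12 turned to 0.03 without LA replicate 1. Some single receptors changed by large amounts. Adora2b, the low-affinity adenosine receptor that raises cAMP, had 2.38 and 2.45 CPM in control and 28.0 and 23.9 CPM in LA (log2 3.42, SE 0.15). Ptgir, the prostacyclin receptor, which also couples to cAMP, rose from 12.8 and 15.9 CPM to 42.3 and 38.9 CPM (log2 1.5, SE 0.11). The receptors that fell included Ptafr, for platelet-activating factor, at 118 and 127 CPM in control and 31.2 and 35.8 CPM in LA (log2 -1.87, SE 0.08). Lpar5, for lysophosphatidic acid, had 37.7 and 41.4 CPM in control and 9.23 and 10.6 CPM in LA (log2 -2.0, SE 0.17), the largest fall that the naming rule found. The purine receptor P2ry13 went from 16.2 and 18.1 CPM to 4.09 and 5.76 CPM (log2 -1.80, SE 0.18).

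Genes that sense or carry lactate and protons moved in both directions, Gpr132 furthest upward among those named here. Of 18 tested proton sensors and pH regulators, 4 rose and 6 fell (median log2 -0.25), and the count of rises was 1 to 2 without any 1 of the 4 libraries. Gpr132, a receptor of the proton-sensing family with lipid ligands, had 10.6 and 10.8 CPM in control and 37.6 and 39.1 CPM in LA (log2 1.84, SE 0.10). Gpr65, the acid-sensing receptor that raises cAMP, had 34.8 and 32.4 CPM in control and 39.3 and 39.3 CPM in LA, a log2 difference of 0.23 (SE 0.10) that was not called. Slc4a2, an anion exchanger that exports bicarbonate, fell from 118 and 124 CPM to 47.4 and 59.6 CPM (log2 -1.18, SE 0.09), and Hvcn1, the voltage-gated proton channel, fell by a log2 of 0.52 (SE 0.09). Of 22 tested genes of lactate transport and use, 6 rose and 3 fell. The background for both lists is 20.4% higher and 17.9% lower over all genes tested. The transporters Slc16a1 (log2 0.26, SE 0.14) and Slc16a3 (log2 0.19, SE 0.09) were not called, although without control replicate 2 Slc16a3 was called at a log2 of 0.34. Mpc1, of the mitochondrial pyruvate carrier, rose from 45.9 and 39.2 CPM to 62.9 and 66.5 CPM (log2 0.60, SE 0.10), and Ldha, the lactate dehydrogenase subunit, rose by a log2 of 0.30 (SE 0.07). Hcar1, the lactate receptor, was not analysed here.

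Txnip and Arrdc4, arrestin-like genes that the glucose sensor MondoA activates and that curb glucose uptake, rose together. Txnip had 369 and 377 CPM in control and 1827 and 1380 CPM in LA (log2 2.10, SE 0.10), and Arrdc4 had 8.65 and 9.38 CPM in control and 52.5 and 41.7 CPM in LA (log2 2.38, SE 0.13). Arrdc3, of the same family, rose by a log2 of 1.51 (SE 0.12), and the hexose transporter Slc2a6 fell by 0.58 (SE 0.09). In all, 4 of 10 tested members of the list rose and 2 fell. The promoter of Arrdc4 (chr7:68749239-68749488, minus strand, GRCm38.p6) is shown because it holds the E-box CACGTG, in capitals. This is a core to which MondoA and related factors bind.
Arrdc4: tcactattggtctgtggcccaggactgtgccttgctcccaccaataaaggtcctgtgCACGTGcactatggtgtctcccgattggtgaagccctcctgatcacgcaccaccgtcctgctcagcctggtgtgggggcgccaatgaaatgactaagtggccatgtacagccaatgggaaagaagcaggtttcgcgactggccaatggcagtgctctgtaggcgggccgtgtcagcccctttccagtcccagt
The E-box started 193 bases before the start. The 250 bases before the start of Txnip were searched in the same way and held no exact CACGTG. Sites that differ from these letters were not searched, so a MondoA site there is not excluded. Over whole promoters of 300 bases, CACGTG, which reads the same on both strands, was in 11.1% of the genes called higher, 14.1% of those lower and 11.8% of all, so its presence is common and not higher among the genes that rose.

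Housekeeping metabolism shifted by small steps. Cytosolic ribosomal protein genes rose in 32 of 33 cases and fell in 0 (median log2 0.43), and the same counts were found with total-count scaling. Rplp1 had 345 and 353 CPM in control and 528 and 609 CPM in LA (log2 0.70, SE 0.07). Rps19 had 183 and 183 CPM in control and 282 and 309 CPM in LA (log2 0.69, SE 0.07). Processed copies of ribosomal genes are many, so the division of reads among them is uncertain. Subunits of oxidative phosphorylation rose in 23 of 32 cases and fell in 0 (median log2 0.32), or in 14 with total-count scaling, for example Cox5a from 74.5 and 69.7 CPM to 106 and 104 CPM (log2 0.54, SE 0.08). Glycolytic enzymes rose in 11 of 21 cases and fell in 2 (median log2 0.21), or 6 and 2 with total-count scaling. Pfkfb3, whose product makes an activator of glycolysis, went from 21.1 and 21.2 CPM to 36.4 and 31.8 CPM (log2 0.69, SE 0.09), and Gapdh from 3671 and 4055 CPM to 4898 and 4905 CPM (log2 0.34, SE 0.06). Genes of ribosome biogenesis and the Myc network went the other way, with 3 of 27 higher and 13 lower (median log2 -0.32). Polr1b, a subunit of RNA polymerase I, fell from 15.6 and 14.4 CPM to 5.76 and 6.38 CPM (log2 -1.30, SE 0.17), and the Myc antagonist Mxi1 rose from 25.3 and 28.1 CPM to 110 and 100 CPM (log2 1.98, SE 0.09). Myc itself rose by a log2 of 0.43 (SE 0.11), and that call was lost without control replicate 1 or LA replicate 2.

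The 10 largest differences in CPM, which favour abundant and long transcripts, included the iron storage genes Ftl1 (10610 and 12189 CPM in control, 14345 and 16066 CPM in LA, log2 0.42, SE 0.08) and Fth1 (6617 and 6949 CPM, then 9347 and 9348 CPM, log2 0.46, SE 0.06). Tmsb4x, an actin-binding peptide gene, went from 2675 and 2501 CPM to 3803 and 3958 CPM (log2 0.58, SE 0.06), and Sirpa, the inhibitory receptor for CD47, fell from 1887 and 1992 CPM to 1282 and 1230 CPM (log2 -0.63, SE 0.06). Lysosomal Ctsd (log2 0.18) and lysozyme Lyz2 (log2 0.20) were called too, but not with total-count scaling, where they stood at 0.07 and 0.09. In the deposited TPM, which divide by transcript length and scale to a fixed sum, Ctsd was lower with LA, at 9890 in control and 9460 in LA (means), and Lyz2 also, at 18100 and 17600.

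**Figure D2:**
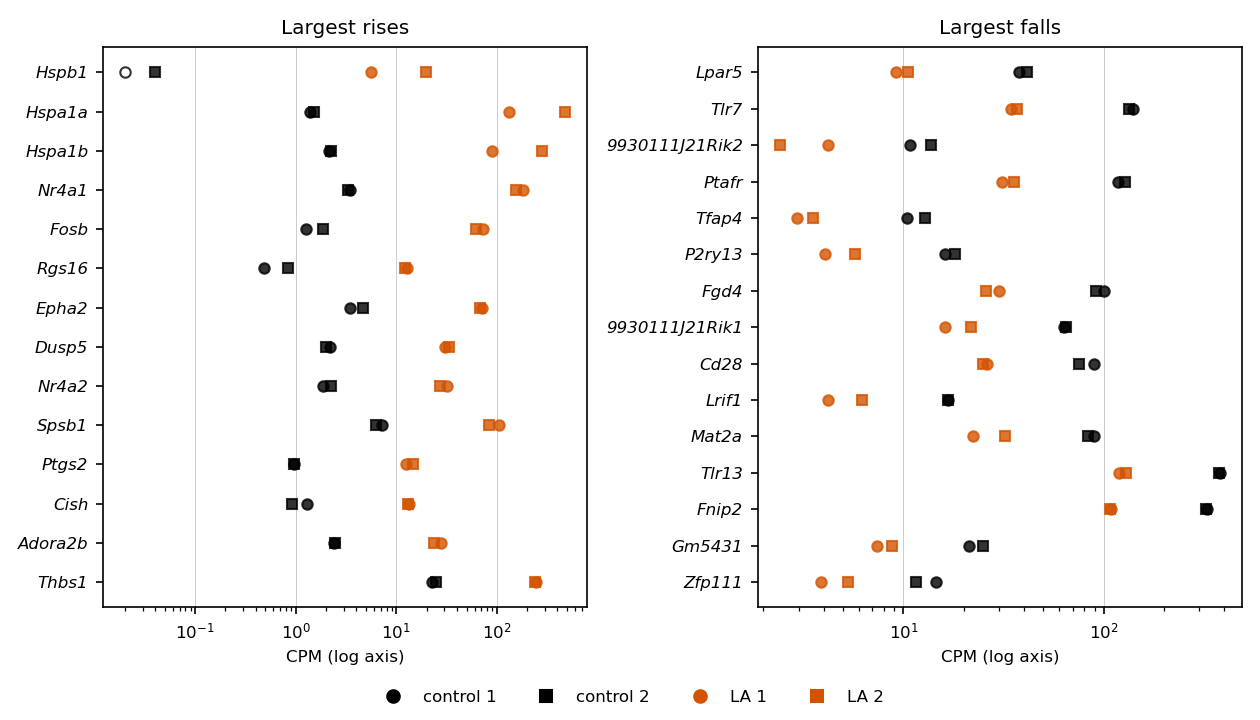
Level in each library (CPM, log axis, black for control and orange for LA, circles for replicate 1 and squares for replicate 2) of 14 reported genes among the largest rises and of the 15 largest falls by the naming rule, with the open circle marking 0 CPM drawn at 0.02. Groups are apart in each gene because the naming rule required it. The LA libraries spread most for Hspb1, Hspa1a and Hspa1b (132 and 480 CPM for Hspa1a).

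Target genes of p53, the DNA damage and stress regulator, rose in 20 of 24 tested cases and fell in 1 (median log2 0.85). Cdkn1a, encoding the cyclin-dependent kinase inhibitor p21, had 362 and 364 CPM in control and 1818 and 1517 CPM in LA (log2 2.20, SE 0.07, edgeR adjusted p = 2.32e-16). Mdm2, the ligase that degrades p53, had 127 and 121 CPM in control and 497 and 463 CPM in LA (log2 1.95, SE 0.07). The growth arrest genes Gadd45b (13 and 12.2 CPM, then 86.3 and 72.3 CPM, log2 2.65, SE 0.09) and Gadd45g (5.62 and 7.42 CPM, then 30.1 and 33.7 CPM, log2 2.29, SE 0.14) rose as well. Trp53, the gene of p53, was not called (log2 0.16, SE 0.07) and is named here outside the rule. Several members have other known inducers, and the list was chosen with these results known. In the BCL2 family 6 of 17 rose and 3 fell, or 4 and 5 with total-count scaling: the death-promoting Bcl2l11 rose from 57.6 and 55.1 CPM to 129 and 123 CPM (log2 1.16, SE 0.07), and Bid fell by a log2 of 0.85 (SE 0.09). Genes of G1 cyclins and replication stood near the shares over all genes tested (20.4% higher, 17.9% lower), with 6 of 34 higher and 6 lower. Among them were Ccnd3, a G1 cyclin (log2 0.68, SE 0.08), and Mcm10, a replication factor (log2 -0.76, SE 0.09). Mitosis genes showed 4 of 27 higher and 9 lower. The proliferation marker Mki67 fell from 745 and 828 CPM to 587 and 612 CPM (log2 -0.39, SE 0.08). Without control replicate 1 the mitosis count was 1 higher and 6 lower.

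Several secreted and matrix-associated factors rose. Thbs1, thrombospondin 1, had 22.6 and 24.6 CPM in control and 243 and 242 CPM in LA (log2 3.36, SE 0.10). In the list of plasminogen activation and matrix 9 of 23 rose and 1 fell (median log2 0.25), including Plaur, the urokinase receptor (57.6 and 65.4 CPM, then 146 and 153 CPM, log2 1.28, SE 0.08), and Plau, urokinase (log2 0.88, SE 0.07). Among 13 angiogenic and EGF family growth factors 6 rose and 1 fell (median log2 0.51). The count was 4 and 1 (median 0.27) without LA replicate 1 and 4 and 0 without control replicate 1. Vegfa had 36.1 and 36.9 CPM in control and 102 and 101 CPM in LA (log2 1.48, SE 0.09), and Pdgfa 17.0 and 16.4 CPM in control and 59.1 and 67.0 CPM in LA (log2 1.91, SE 0.10). Pdgfb rose by a log2 of 1.40 (SE 0.08) and Gdf15, a stress-induced member of the TGF-beta family, by 1.37 (SE 0.11). Targets of hypoxia-inducible factor as a list were mixed, with 9 of 25 higher and 6 lower and a median log2 of 0.06. Epha2, an ephrin receptor, rose from 3.48 and 4.69 CPM to 70.4 and 68.0 CPM (log2 4.08, SE 0.27).

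NF-kB pathway genes rose in 20 of 32 cases and fell in 5 (median log2 0.38), or 15 and 9 with total-count scaling. The 5 genes that fell numbered 2 without control replicate 2 or LA replicate 1. The members named by the smallest p were 3 IkB family genes and a kinase. Bcl3, a nuclear IkB protein, had 19.4 and 25.5 CPM in control and 99.7 and 90.8 CPM in LA (log2 2.08, SE 0.10), Nfkbia, encoding the inhibitor IkB-alpha, 61.0 and 67.9 CPM in control and 154 and 169 CPM in LA (log2 1.33, SE 0.07), and Map3k14, the kinase of the non-canonical arm, 25.3 and 31.8 CPM in control and 102 and 92.3 CPM in LA (log2 1.77, SE 0.11). Nfkbiz, another nuclear IkB gene, rose by a log2 of 1.19 (SE 0.09).

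Inflammatory cytokines rose in 9 of 22 cases and fell in 2, most from very low levels. The median log2 was 1.25, or 0.97 with Ifnb1 at its bound and the 3 members without a fold left out. It was 0.12 without LA replicate 2, where 9 again rose and 2 fell, and 0.60 over the 16 members tested when only the 4 libraries were fitted. Osm, oncostatin M, had 4.65 and 5.69 CPM in control and 20.5 and 21.6 CPM in LA (log2 2.02, SE 0.17). Csf1, encoding M-CSF, had 17.3 and 19.4 CPM in control and 36.0 and 36.1 CPM in LA (log2 0.97, SE 0.08). Il1b had 0.525 and 0.762 CPM in control and 5.93 and 8.79 CPM in LA (log2 3.50, SE 0.28). Tnf had 29.3 and 29.4 CPM in control and 69.4 and 100 CPM in LA (log2 1.53, SE 0.23), a call that was lost without control replicate 1 and the LPS+HCl library that carried brain transcripts. Lif, a cytokine of the IL-6 family, had 2 counts in control and 55 in LA, a ratio of 30.2 (95% interval 7.98 to 256, for counting error only). Il6 had 0 counts in control and 1 in LA, and Nos2, the inducible nitric oxide synthase, 1 and 10 counts, a ratio of 11 (95% interval 1.56 to 477), and was not called. Il10 was not called (log2 0.87, SE 0.50), but was called without LA replicate 1 at a log2 of 1.41. Ptgs2, the inducible cyclooxygenase, had 0.970 and 0.962 CPM in control and 12.4 and 14.8 CPM in LA (log2 3.81, SE 0.19).

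Chemokine genes rose in 5 of 22 cases and fell in 1, close to the background share of rises. Cxcl10 had 9.26 and 14.2 CPM in control and 35.3 and 55.7 CPM in LA (log2 1.95, SE 0.28), and Cxcl16 142 and 146 CPM in control and 202 and 198 CPM in LA (log2 0.47, SE 0.07). The list had 8 higher and 1 lower without LA replicate 1, and 5 higher and 4 lower without LA replicate 2. Ccl4 went from 30.8 and 28.8 CPM to 19.2 and 49.6 CPM, with the LA libraries on either side of the controls. It was called higher at 0.73 without LA replicate 1 and lower at -0.63 without LA replicate 2.

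Toll-like receptors and adaptors, the sensors of microbial products, fell in 9 of 22 cases and rose in 4 (median log2 -0.20). The receptors that fell furthest sense RNA inside endosomes. Tlr7 had 140 and 133 CPM in control and 34.4 and 36.9 CPM in LA (log2 -1.94, SE 0.08), Tlr13 380 and 378 CPM in control and 120 and 129 CPM in LA (log2 -1.61, SE 0.07), and Tlr8 95.5 and 96.4 CPM in control and 40.8 and 33.7 CPM in LA (log2 -1.37, SE 0.10). Tlr4, the LPS receptor, is named outside the rule: it had 108 and 96.0 CPM in control and 41.9 and 44.1 CPM in LA (log2 -1.24, SE 0.09). Its co-receptor Cd14 rose, from 335 and 369 CPM to 856 and 961 CPM (log2 1.37, SE 0.07).

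Interferon-stimulated genes fell in 13 of 38 cases and rose in 2 (median log2 -0.20), but the LA libraries differed. The count was 6 higher and 8 lower without LA replicate 1, and 2 higher and 19 lower without LA replicate 2. Irgm1, an interferon-induced GTPase, had 68.2 and 71.0 CPM in control and 38.7 and 45.4 CPM in LA (log2 -0.73, SE 0.08), and Eif2ak2, the double-stranded RNA sensor PKR, 61.3 and 59.1 CPM in control and 35.8 and 38.9 CPM in LA (log2 -0.69, SE 0.09). Ifit1 was not called, at 19.0 and 21.5 CPM in control and 11.1 and 23.7 CPM in LA. Ifnb1, interferon beta, had no count in control and 3 and 43 counts in LA, at least 16.9-fold higher over the group against a floor of 3 counts, although it was not called. In interferon and cytokine signalling 14 of 35 rose and 6 fell, or 12 and 10 with total-count scaling. The feedback inhibitors Cish (1.29 and 0.922 CPM in control, 13.4 and 13.2 CPM in LA, log2 3.58, SE 0.15) and Socs3 (6.39 and 7.54 CPM, then 23.8 and 26.5 CPM, log2 1.85, SE 0.10) were among the rises, with the kinase Jak2 (log2 1.06, SE 0.08).

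**Figure D3:**
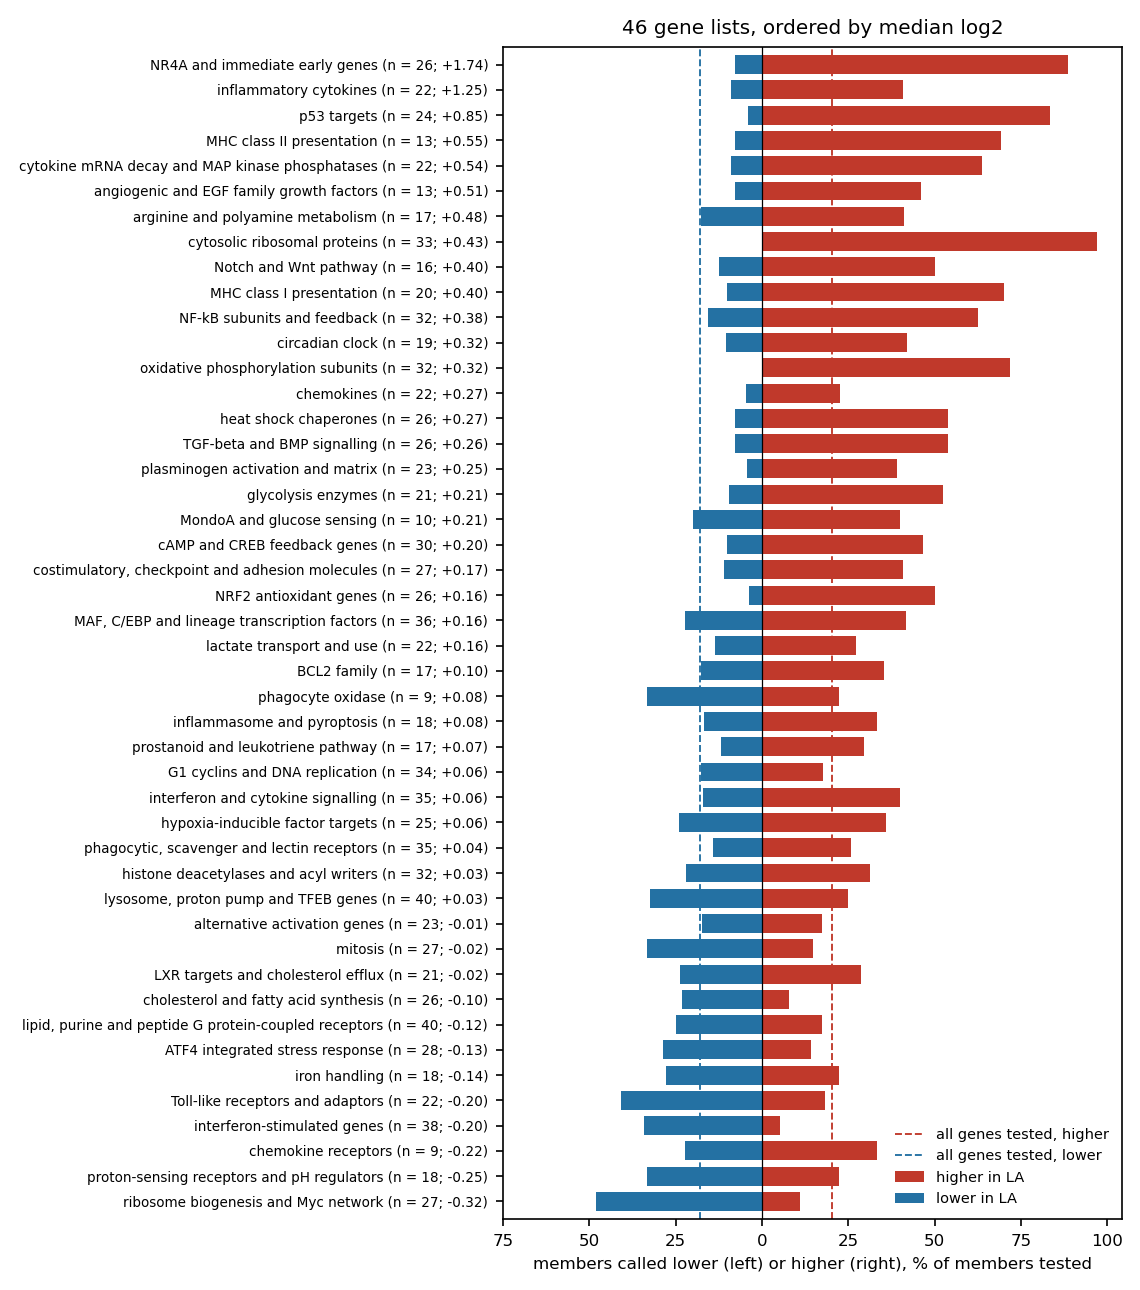
Share of tested members called higher (red, right) or lower (blue, left) with LA in each of 46 gene lists, in percent, ordered by the median log2 that stands with the number tested beside each name. Dashed lines mark the shares over all genes tested, 20.4% higher and 17.9% lower, and immediate early genes, p53 targets and cytosolic ribosomal proteins reach furthest to the right.

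Heat shock chaperones held the 3 largest of the rises that the naming rule found, and the widest spread between the LA libraries. Hspa1a, an inducible HSP70, had 1.37 and 1.52 CPM in control and 132 and 480 CPM in LA (log2 7.71, SE 0.92, edgeR adjusted p = 0.00166). Its near-identical neighbour Hspa1b had 2.14 and 2.25 CPM in control and 89.9 and 283 CPM in LA (log2 6.4, SE 0.77), and the division of reads between them is uncertain. Hspb1, a small heat shock protein, had 1 count in control and 571 in LA, a ratio of 628 (95% interval 112 to 24800, for counting error only), with 5.58 and 19.8 CPM in the LA libraries. Both LA libraries were far above control for these 3 genes, and library 2 was higher in each. The calls were lost when only the 4 libraries were fitted (edgeR adjusted p = 0.059 for Hspa1a, 0.059 for Hspa1b and 0.054 for Hspb1), with log2 values of 7.71 and 6.39 for the HSP70 genes. Over the whole list of 26 members, these 3 included, 14 rose and 2 fell (median log2 0.27), or 7 and 3 with total-count scaling, 10 and 0 without control replicate 1 and 11 and 0 without LA replicate 2. Bag3, a co-chaperone of HSP70, had 91.1 and 99.6 CPM in control and 196 and 217 CPM in LA (log2 1.12, SE 0.08). Dnajb1 (log2 -0.02) and Hspa8 (log2 0.15), other members of the heat shock system named after their values were seen, were not called. The heat shock element was searched on both strands of 300-base promoters as 3 alternating units of GAA and TTC spaced by 2 bases. An exact match was in 0.594% of the genes called higher, 0.673% of those lower and 0.572% of all. Neither Hspa1a nor Hspb1 held these exact letters in the 250 bases before the start. Elements with a mismatch were not searched, so an element there is not excluded.

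Among the 8203 genes with at least 10 CPM in LA, 11 had over 2 times the level in LA library 2 that they had in LA library 1 and 0 had the reverse. The 10 with the widest ratio, Hspa1a, Hspb1, Hspa1b, LOC100862455, Acod1, Ccl4, Hes6, Gm20594, Ifit1 and Ppp1r15a, were all higher in library 2. Acod1, which makes the antimicrobial metabolite itaconate, had 15.3 and 16.4 CPM in control and 7.12 and 18.4 CPM in LA. Across all genes tested 48.4% were higher in library 2. In the lists, 28 of 38 interferon-stimulated genes, 18 of 22 inflammatory cytokines and 27 of 33 ribosomal protein genes were higher in library 2, and 0 of 26 genes of cholesterol and fatty acid synthesis were (median log2 ratio -0.26). The control libraries differed in part the same way. Control library 2 was higher than control library 1 for 33 of the 38 interferon-stimulated genes (median log2 ratio 0.16) and 15 of the 22 cytokines. It was higher for 19 of the 33 ribosomal protein genes and 15 of the 26 cholesterol and fatty acid genes. For cholesterol and fatty acid synthesis the count was 2 higher and 6 lower in the whole comparison, 2 and 12 without LA replicate 1 and 2 and 3 without control replicate 2. What set the LA libraries apart was not tested.

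**Figure D4:**
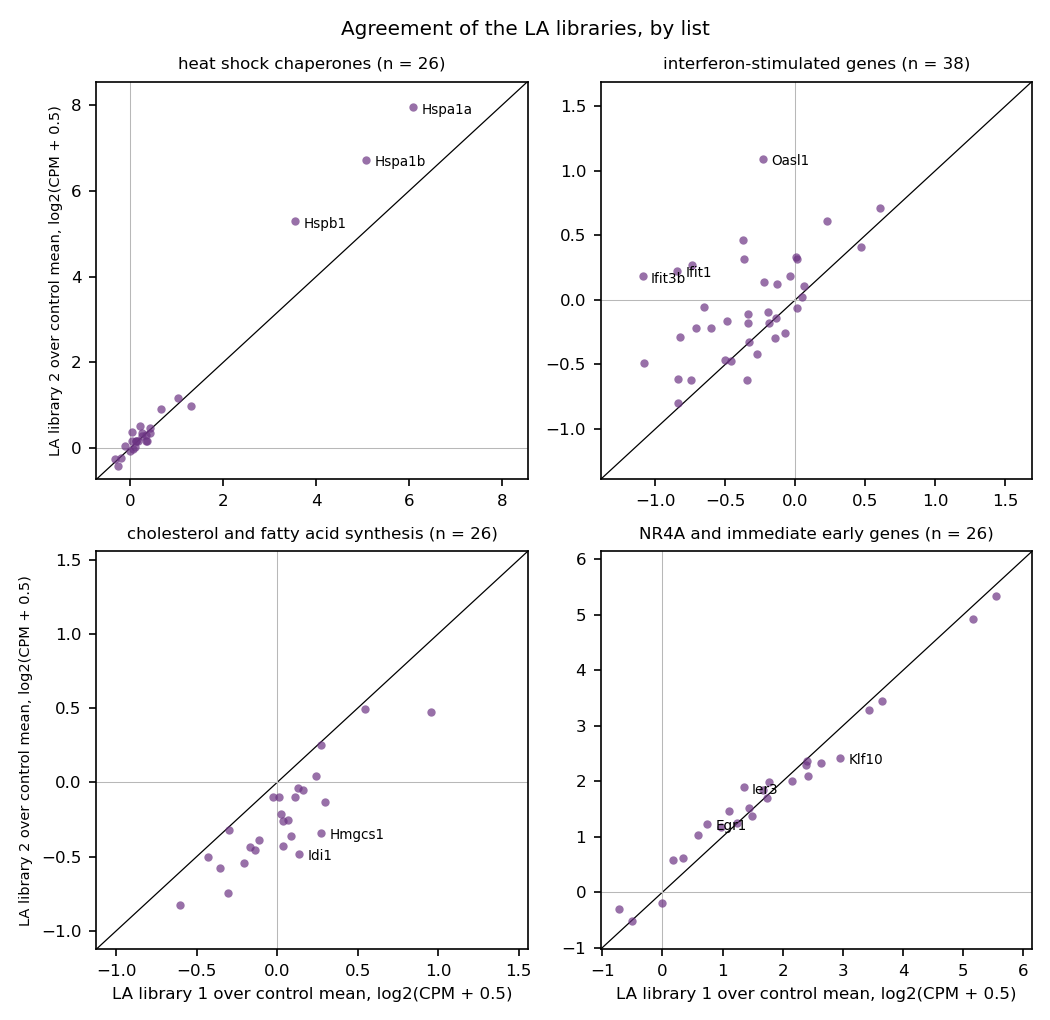
Difference of each LA library from the control mean in log2 of CPM + 0.5 (library 1 horizontal, library 2 vertical, each panel on its own scale) for the members of 4 lists, 1 point per gene, with the line of equality. Immediate early genes follow the line, Hspa1a, Hspa1b and Hspb1 and most interferon-stimulated genes lie above it, and the genes of cholesterol and fatty acid synthesis lie below it.

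Lists of 2 other stress programmes differed in direction. In the ATF4 integrated stress response 4 of 28 rose and 8 fell (median log2 -0.13). Atf4 itself had 231 and 229 CPM in control and 97.5 and 130 CPM in LA (log2 -1.02, SE 0.11), and the amino acid transporters Slc7a1 (112 and 106 CPM, then 59.6 and 54.4 CPM, log2 -0.93, SE 0.08) and Slc7a5 (log2 -0.63, SE 0.09) fell, while Sesn2, an inhibitor of mTORC1, rose by a log2 of 0.87 (SE 0.11). Antioxidant genes of NRF2 rose in 13 of 26 cases and fell in 1 (median log2 0.16), or 10 and 3 with total-count scaling. Gclm, of glutathione synthesis, had 90.9 and 96.3 CPM in control and 130 and 139 CPM in LA (log2 0.52, SE 0.09).

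Lysosome, proton pump and TFEB genes rose in 10 of 40 cases and fell in 13, or 2 and 14 with total-count scaling. Without control replicate 1 the count was 3 and 8, and without LA replicate 2 it was 10 and 8. The folliculin complex, which links lysosomal amino acids to TFEB and mTORC1, was lower: Fnip2 had 326 and 324 CPM in control and 109 and 108 CPM in LA (log2 -1.59, SE 0.08), and Flcn 58.5 and 61.1 CPM in control and 21.7 and 25.4 CPM in LA (log2 -1.34, SE 0.11). In iron handling 4 of 18 rose and 5 fell, against 20.4% and 17.9% of all genes tested. Ferroportin, Slc40a1, the iron exporter, fell from 90.7 and 78.6 CPM to 33.6 and 30.5 CPM (log2 -1.40, SE 0.11), and Ncoa4, the receptor that delivers ferritin to lysosomes, from 163 and 165 CPM to 92.6 and 97.7 CPM (log2 -0.79, SE 0.07), while Fth1 rose. In arginine and polyamine metabolism 7 of 17 rose and 3 fell. Odc1, which makes putrescine, had 55.5 and 55.1 CPM in control and 142 and 151 CPM in LA (log2 1.40, SE 0.07).

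In the list of lineage transcription factors 15 of 36 tested members rose and 8 fell (median log2 0.16). Over all genes tested 20.4% rose and 17.9% fell. Maf, which limits macrophage self-renewal, had 460 and 426 CPM in control and 152 and 163 CPM in LA (log2 -1.49, SE 0.08), and Zeb2, of tissue macrophage identity, 293 and 291 CPM in control and 116 and 116 CPM in LA (log2 -1.33, SE 0.06). Bcl6, a repressor of inflammatory genes, rose from 93.7 and 104 CPM to 428 and 351 CPM (log2 1.98, SE 0.11), and Runx3 from 38.0 and 44.8 CPM to 109 and 111 CPM (log2 1.41, SE 0.10). Genes of alternative activation stood near the shares over all genes, with 4 of 23 higher and 4 lower. Il4ra, the interleukin 4 receptor, had 125 and 143 CPM in control and 289 and 268 CPM in LA (log2 1.05, SE 0.08), and Mrc1, the mannose receptor, had 517 and 486 CPM in control and 358 and 280 CPM in LA (log2 -0.65, SE 0.10). Arg1 was too low to be tested.

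Genes of antigen presentation rose by small amounts. In the class I list 14 of 20 rose and 2 fell (median log2 0.40), or 12 and 2 with total-count scaling, and in the class II list 9 of 13 rose and 1 fell (median log2 0.55), or 7 and 1. H2-K1 had 572 and 580 CPM in control and 845 and 815 CPM in LA (log2 0.53, SE 0.06), and Tap1, of the peptide transporter, 99.8 and 104 CPM in control and 159 and 154 CPM in LA (log2 0.62, SE 0.07). Cd74, the class II invariant chain, had 122 and 142 CPM in control and 197 and 221 CPM in LA (log2 0.67, SE 0.08). The gene that fell in the class II list was Ciita, the class II transactivator, at 2.63 and 3.17 CPM in control and 1.36 and 1.25 CPM in LA (log2 -1.15, SE 0.34), named because it is the exception. Among costimulatory, checkpoint and adhesion molecules 11 of 27 rose and 3 fell, or 8 and 5 with total-count scaling, with Itga5, the fibronectin receptor subunit, at 230 and 260 CPM in control and 550 and 569 CPM in LA (log2 1.19, SE 0.07) and Icosl at a log2 of 1.02 (SE 0.08). Cd28, a receptor for costimulation best known from T cells, fell from 89.4 and 75.6 CPM to 26.2 and 25.1 CPM (log2 -1.68, SE 0.11), in libraries where Cd3d and Cd3e were at or near 0.

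Genes that rose were shorter than genes that fell, and more abundant when changes of any size were counted. The median gene span was 14.6 kb for the genes called higher, 39.5 kb for those called lower and 23.1 kb for those not called, and the median control TPM was 46.1, 24.4 and 13.5. For changes of log2 1 or more the spans were 16.3 kb for rises and 25.3 kb for falls. The median control TPM of these was 6.01 and 5.5, both below the 19.8 of all genes tested. In the fifth of genes with the shortest span 34.1% rose and 7.36% fell, and in the fifth with the longest span 11.1% rose and 27.4% fell. In the fifth with the highest control TPM 40.9% rose and 16.2% fell. Span and level move together with several lists, including the short and abundant ribosomal protein genes, and their part in the list counts was not tested.

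The effect of LA was also measured on top of LPS, in libraries shared with neither side of the comparison without LPS. Of the 2488 genes higher with LA alone, 1279 (51.4%) were also higher in LPS+LA than in LPS, which is 35.8% of the 3569 genes higher there, against 29.2% of all genes tested. Another 514 (20.7%) were lower there, against 29.7% of all. Of the 2189 genes lower with LA alone, 1175 (53.7%) were lower in LPS+LA, which is 32.4% of 3622. In LPS+HCl against LPS, 829 of the 2488 (33.3%) were higher, against 18.0% of all, and 901 of the 2189 (41.2%) were lower, against 20.8% of all. LPS+LA and LPS+HCl were both set against the same LPS libraries. Total-count scaling moved the balance of these calls: 50.8% of all genes tested were then higher in LPS+LA and 16.6% lower, with 77.7% of the 1719 genes higher with LA alone called higher there and 30.7% of the 3070 lower called lower. For LPS+HCl the shares of all genes became 37.1% higher and 10.7% lower. Of the 14 reported genes among the largest rises, 10 were higher in LPS+LA than in LPS, 3 were lower (Cish, Ptgs2 and Spsb1) and Nr4a2 was not called. In LPS+HCl 7 of the 14 were higher, among them Nr4a1 (log2 3.90) and Fosb (log2 5.59, from a mean of only 0.132 CPM in LPS). Hspa1a, Hspa1b and Hspb1 were not called there. Of the 15 largest falls, 8 were lower in LPS+LA, and Cd28, Fnip2, Lpar5, Tfap4 and Tlr13 were higher.

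Fold changes with and without LPS were compared directly for 14 genes by the interaction term of the fit. Nr4a1 differed by -0.09 (SE 0.26, edgeR adjusted p = 0.825), with log2 differences of 5.64 without LPS and 5.55 with it, and with total-count scaling by 0.42, also not called (5.53 and 5.95). Txnip (-0.16, SE 0.14) and Tlr7 (-0.15, SE 0.11) did not pass either, but with total-count scaling, which shifts the median of this contrast by 0.51, both passed with the opposite sign, at 0.35 and 0.36. For Ptgs2, LA alone gave 3.81 and LA with LPS -3.41, a difference of -7.21 (SE 0.20, edgeR adjusted p = 4.29e-16). For Il1b the values were 3.50 and -2.92, and for Tnf 1.53 and -2.75. These 3 genes rose with LA in resting cells and fell with LA in LPS-treated cells, also with total-count scaling (Ptgs2 3.70 and -3.0, Il1b 3.40 and -2.52, Tnf 1.42 and -2.35). The smaller effects with LPS turned with that scaling: Zfp36 went from -0.34 to 0.06 and was no longer called, and Ptafr from -0.21, called lower, to 0.19, called higher.

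**Figure D5:**
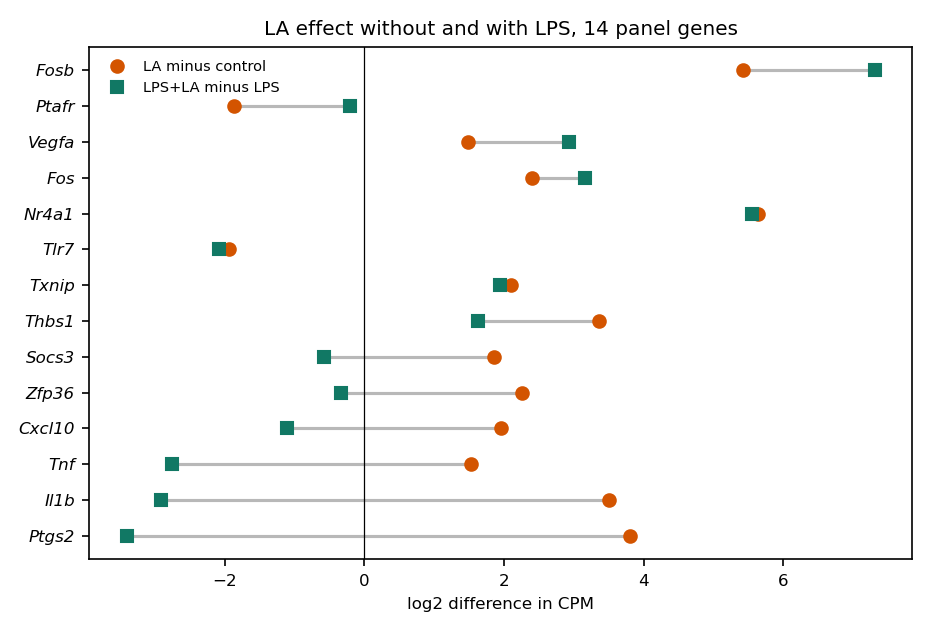
Log2 difference due to LA for 14 panel genes without LPS (orange circles, LA minus control) and with LPS (green squares, LPS+LA minus LPS), ordered by the difference between them. Nr4a1, Tlr7 and Txnip have both values close together with the TMM scaling drawn, and for Socs3, Zfp36, Cxcl10, Tnf, Il1b and Ptgs2 the values lie on opposite sides of 0. For Zfp36 that placement is lost with total-count scaling, where its value with LPS is 0.06, and Ptafr then has 0.19 with LPS.

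Open chromatin was measured by ATAC-seq, which maps DNA that a transposase can cut, in 3 samples with LA and 3 control samples. Peaks numbered 76680 to 80820 with LA and 80386 to 86566 in control. All control samples ran on lane 5 and all LA samples on lane 6, so lane and treatment cannot be told apart. Of 101423 merged sites, 2031 had a peak in all 3 LA samples and in no control sample (gained) and 3103 the reverse (lost). A gained site lay within 50 kb of 25.69% of the 2483 genes called higher with a position, 21.52% of the 2184 called lower and 19.55% of those not called. A lost site lay near 30.41%, 33.79% and 28.76% of them. Within 10 kb the order of the gained sites turned, at 12.36% of the genes called higher, 12.68% of those lower and 9.43% of those not called. Genes called lower had longer spans, so they had more room for a site, and a part of span in these shares was not tested. Of the same 14 rises 6 had a gained site within 50 kb (Cish, Dusp5, Fosb, Hspa1a, Hspa1b and Spsb1) and 4 a lost site. Hspa1a and Hspa1b are neighbours, so a site near them can count for both. Of the 15 largest falls 5 had a gained site and 8 a lost site.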

How the data were processed

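RNA was compared between 2 LA and 2 control libraries of mouse bone marrow-derived macrophages, grouped by their labels. The authors deposited a table of expected counts, FPKM and TPM per gene and library, and 6.07% of the expected counts were not whole, so all were rounded. HISAT and Bowtie2 with GRCm38.p6 are named in the submitters' processing notes, while the tool that counted, and whether it used strand, are not given in the sources used here; reads of overlapping antisense genes cannot be separated. The deposited TPM values described levels by transcript length only, and the FPKM values were not used. Of the gene IDs, 15959 matched a RefSeq table of GRCm38.p6, and 23 symbols turned into dates were read through their IDs. Of 13 mitochondrial transcripts that would show RNA quality, 0 were in the table.

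Genes were kept by filterByExpr (minimum count 10, minimum total 15) and scaled by TMM. edgeR 4.0.16 (R 4.3.3; glmQLFit, robust, 1 term per group over all 10 libraries, so that all groups share the estimate of the spread) gave two-sided quasi-likelihood tests with Benjamini-Hochberg adjustment at 0.05. The steps were tested on simulated data. Ratios of few counts carry exact 95% intervals, and the floor for a group at 0 was 3 counts over the group. Alternatives were other scalings, DESeq2 1.42.0, no filter, other thresholds, a replicate block and fits without single libraries.

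The 46 pathway and 12 marker lists (1117 genes, 1106 in the table), the comparisons and the naming rule were chosen with earlier results of these data known. The rule named the 15 largest rises and falls among called genes whose libraries do not overlap and whose mean reaches 10 CPM in either group, the 10 largest CPM differences among called genes, up to 4 called members per described list with the smallest adjusted p, a panel, and the 10 genes that differed most between the LA libraries. Some genes that it names are not reported here. The heat shock motif, the counts by LA library and the total-count scaling of the comparisons with LPS were added after seeing the data.

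For ATAC-seq the authors deposited a peak list per sample, made by MACS2 per the file headers, with a score per peak, used only to filter. The submitters' processing notes give MACS2 2.0.10, BWA 0.5.9, Picard and mm10 (GRCm38). Peaks were merged with an overlap of at least 1 bp with bedtools 2.31.1, and distances (50 kb, with 10 and 100 kb as alternatives) were taken from the gene bounds. The lists carry no read counts, and reads may be present where no peak was called. Promoters are those of RefSeq (GRCm38.p6), found for 9797 of 12213 genes, and a gene with several promoters held a motif if any of them did.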

Additional observations from a re-analysis of the deposited data

Results flagged for a closer look

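For 11 of the 14 panel genes the LA effect with LPS differed from the effect without it by the interaction term of the edgeR fit, adjusted by Benjamini-Hochberg. The panel was chosen with earlier results of these data known. The share of all genes tested that pass this test is not given here, so the count has no background beside it. Values are the log2 difference with LPS minus that without. Fosb (1.88), Fos (0.76) and Vegfa (1.46) rose in both states, and by a larger fold with LPS. For Fosb that fold starts from a mean of only 0.132 CPM in LPS. Its mean was 21.7 CPM in LPS+LA, below the 67.8 CPM in LA alone. Thbs1 rose in both, and less with LPS (-1.73). Ptafr fell in both, and less with LPS (1.66), but with total-count scaling its effect with LPS was 0.19 and called higher. Ptgs2 (-7.21), Il1b (-6.42), Tnf (-4.28), Cxcl10 (-3.06), Zfp36 (-2.60) and Socs3 (-2.44) rose with LA alone and were lower in LPS+LA than in LPS, each called in both states. With total-count scaling Zfp36 had 0.06 with LPS and was not called, while the other 5 kept both directions and calls. LPS itself moves the levels on which the second effect is measured, and the part of that in the differences was not tested.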

How the results depend on the processing

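The 2488 genes higher and 2189 lower became 347 and 258 when a log2 of at least 1 was also asked. Leaving out 1 library, or control replicate 1 with LPS+HCl replicate 2 (both hold brain transcripts), gave 1676 to 2226 higher and 1497 to 1922 lower. No replicate effect shared by control and LA was seen: their replicate differences correlated at -0.04. A fit with a replicate block gave 2487 higher and 2176 lower. These values cannot show whether the samples were paired. DESeq2's Wald test gave 2124 and 1897. With total-count scaling the interaction turned from -0.16 to 0.35 for Txnip and from -0.15 to 0.36 for Tlr7; that scaling shifts the median of the contrast by 0.51. Ccl4, at 0.20 and not called, was -0.63 without LA replicate 2 and 0.73 without LA replicate 1. Over 2297 combinations of a named gene and an alternative, 2268 kept direction and side of the threshold, 19 lost the call, 9 gained one and 1 reversed, in 17 of 209 genes. Leaving out any 1 of the 4 libraries moves some list counts, given beside them. Depth limits genes below about 3 counts a group.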

Other observations

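Genes of the circadian clock rose in 8 of 19 tested cases and fell in 2 (median log2 0.32), or in 5 without either control library. Nfil3, a repressor of clock output, had 5.98 and 6.82 CPM in control and 29.3 and 26.8 CPM in LA (log2 2.13, SE 0.12), Bhlhe40 58.7 and 66.8 CPM in control and 133 and 123 CPM in LA (log2 1.03, SE 0.09), and Csnk1e, a kinase of PER proteins, 44.1 and 46 CPM in control and 88.0 and 87.3 CPM in LA (log2 0.96, SE 0.08). In the Notch and Wnt list 8 of 16 rose and 2 fell (median log2 0.40), or 5 and 2 when only the 4 libraries were fitted. The Notch ligand Jag1 had 12.5 and 13.4 CPM in control and 40.6 and 47.7 CPM in LA (log2 1.77, SE 0.13), the receptor Notch1 36.9 and 43.4 CPM in control and 94.6 and 86.5 CPM in LA (log2 1.17, SE 0.09), and the target Hes1 0.606 and 0.361 CPM in control and 6.46 and 7.19 CPM in LA (log2 3.80, SE 0.41).

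In TGF-beta and BMP signalling 14 of 26 rose and 2 fell (median log2 0.26). The inhibitors Smad7 (9.34 and 10.0 CPM in control, 47.1 and 37.2 CPM in LA, log2 2.12, SE 0.14) and Skil (67.4 and 57.1 CPM, then 220 and 177 CPM, log2 1.67, SE 0.09) rose with the target Id1 (15.7 and 15.3 CPM, then 39.1 and 43.5 CPM, log2 1.41, SE 0.13), and the receptor gene Tgfbr2 fell from 155 and 158 CPM to 91.6 and 83.6 CPM (log2 -0.84, SE 0.08). Histone deacetylases and acyl writers were split, with 10 of 32 higher and 7 lower, against 20.4% and 17.9% of all genes tested. Kdm6b, a histone demethylase, had 7.32 and 7.14 CPM in control and 37.8 and 33.5 CPM in LA (log2 2.30, SE 0.11), and Hdac5 98.8 and 107 CPM in control and 201 and 203 CPM in LA (log2 0.98, SE 0.08). Ep300, an acetyltransferase, fell from 165 and 180 CPM to 111 and 102 CPM (log2 -0.70, SE 0.08).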
